A study of Mus musculus with 2 samples.

Results

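Mononuclear phagocytes, the macrophages, monocytes and their relatives, were followed in 2 single-cell RNA libraries from veins grafted into mice: 1 library came from conventional grafts and 1 from No-Touch grafts. The members were chosen by their own UMI counts: a barcode was taken when at least 4 of the 7 genes C1qa, C1qb, Csf1r, Adgre1, Cd68, Fcer1g and Tyrobp had a UMI, Cd3e had none, and S100a8 and S100a9 together made up under 50 of every 10000 UMIs. Of 21983 kept barcodes 288 were members, 95 of 10458 in the conventional library and 193 of 11525 in the No-Touch library. The mice were C57BL6/J, 10 to 12 weeks old, and in the No-Touch procedure the vein is moved with its surrounding tissue. Cells were freed with papain, collagenase and dispase and, per the sample titles, were sorted as CD45 negative, whereas phagocytes carry CD45. The protocol also names gates for CD45 of either sign or tdTomato, and which gate applied is not settled by the sources used here. The number of animals behind a library, and whether the 10x kit was version 2 or 3, are not given in the sources used here. Each graft type is 1 library, so library and graft type cannot be told apart, no test is possible, and no difference below has a replicate check.

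Tissue macrophages clear dying cells, make complement C1q and present antigen, while monocytes enter from the blood through the chemokine receptor CCR2 and can become macrophages. Around vessels, resident macrophages carry the mannose receptor (Mrc1), and macrophages that take up lipid in diseased arteries carry the receptor TREM2. Vein grafts are known to draw in monocytes after implantation.

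The members held 1013071 conventional and 4949071 No-Touch UMIs, with medians of 6915 and 14797 UMIs per barcode, against 16876 and 28620 in the other kept barcodes. The 2 libraries shared 22 deposited barcode sequences, and 0 members of one were found among the kept barcodes of the other. Scrublet, a doublet caller, marked 9 conventional and 15 No-Touch members, and these stayed in. Ptprc, which encodes CD45, was detected in the members at 271 and 339 CPM (UMIs of a gene scaled to a common total of summed UMIs per group), against 7.27 and 12.0 CPM in the other kept barcodes.

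Clustering of the members gave 5 groups, and the label held for 3 of them. A resident-macrophage-like group (20 conventional and 29 No-Touch barcodes) was led by Pf4, Mrc1, C1qa, C1qc and Ms4a7. A monocyte-like group (19 and 60) was led by Ifitm6, with Ccr2, Ly6c2 and Plac8 also among its 10 leading genes. A group called Trem2-high (10 and 38) was led by Rgs1, Kcnn4, Pdgfb and Trem2. The other 2 groups went against the label. A neutrophil-like group (29 and 6) was led by Lcn2, G0s2, Il1f9 and Chil1, with a median of 3229 UMIs, and a fibroblast-mixed group (17 and 60) was led by Sparc, Loxl2 and Col1a1, with a median of 40462 UMIs. These genes made the clusters and are a description, and the sizes of the clusters between libraries are not a result.

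Of the choosing genes, the neutrophil-like barcodes held Fcer1g at 2909 and 2054 CPM, Tyrobp at 2620 and 2182 CPM, Cd68 at 485 and 599 CPM and Csf1r at 317 and 214 CPM, while C1qa lay at 46.6 and 42.8 CPM. In the conventional library their epithelial or parathyroid markers summed to 54656 CPM, against 42.8 CPM in the No-Touch library. That sum was not spread over the group. Only 2 of all 95 conventional members passed 10% of the class median for these markers. The highest member held 2395 of their UMIs per 10000, against a member median of 3.45. In the fibroblast-mixed group all 77 barcodes carried stromal markers, Dcn reached 7462 and 8639 CPM, and Tyrobp only 246 and 136 CPM. The other 3 groups, 176 barcodes, are called the 3 phagocyte groups below and carry most of the description. They held 49 of 95 conventional members (51.6%, exact 95% interval 41.1 to 62.0) and 127 of 193 No-Touch members (65.8%, 58.6 to 72.5). Intervals here and below cover counting error only.

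**Figure D1:**
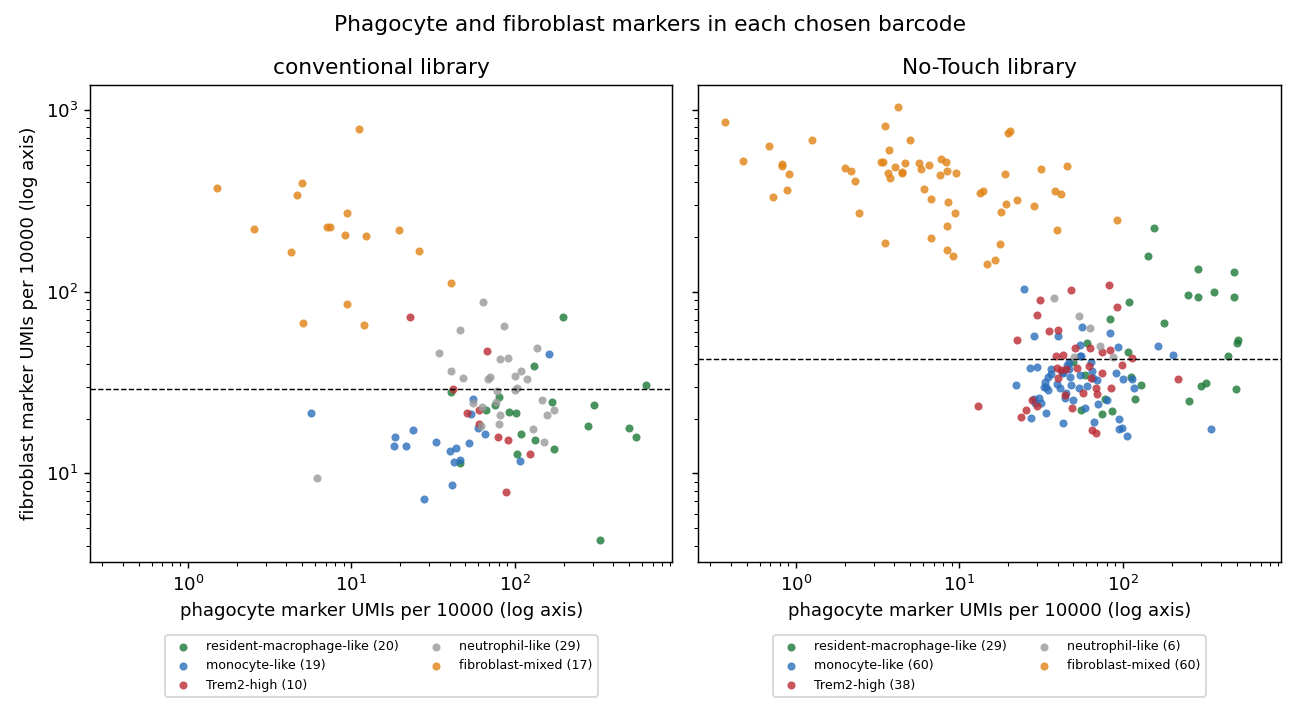
Each point is 1 member barcode, placed by its phagocyte marker UMIs (x axis) and fibroblast marker UMIs (y axis) per 10000, both on log axes, with 1 panel per library and colours for the 5 groups. The dashed line marks 10% of the median of fibroblasts in the same library (28.9 and 42.7 per 10000). The fibroblast-mixed barcodes all sit above that line, as do 7 of 49 conventional and 42 of 127 No-Touch barcodes of the 3 phagocyte groups.

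The 3 phagocyte groups were not free of stromal RNA. Their fibroblast markers had a median of 17.2 UMIs per 10000 in the conventional library (range 4.28 to 72.4) and 34.7 in the No-Touch library (16.0 to 223), against 289 and 427 in fibroblasts. All 10 fibroblast markers were detected in both libraries. The T or NK cell marker Cd3e was at 0 by the rule itself, and Cd3d and Cd3g were also at 0 in both. The neutrophil markers summed to 142 and 165 CPM. That sum was held down in advance, because the rule limits S100a8 and S100a9 and the neutrophil-like group was set aside. Epithelial or parathyroid markers summed to 2224 CPM in the conventional and 44.3 CPM in the No-Touch library, and lymphatic endothelial markers to 737 and 104 CPM, and 1 conventional barcode passed 10% of the class median for each of these lists. The part of this carried RNA in the differences below was not tested.

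**Figure D2:**
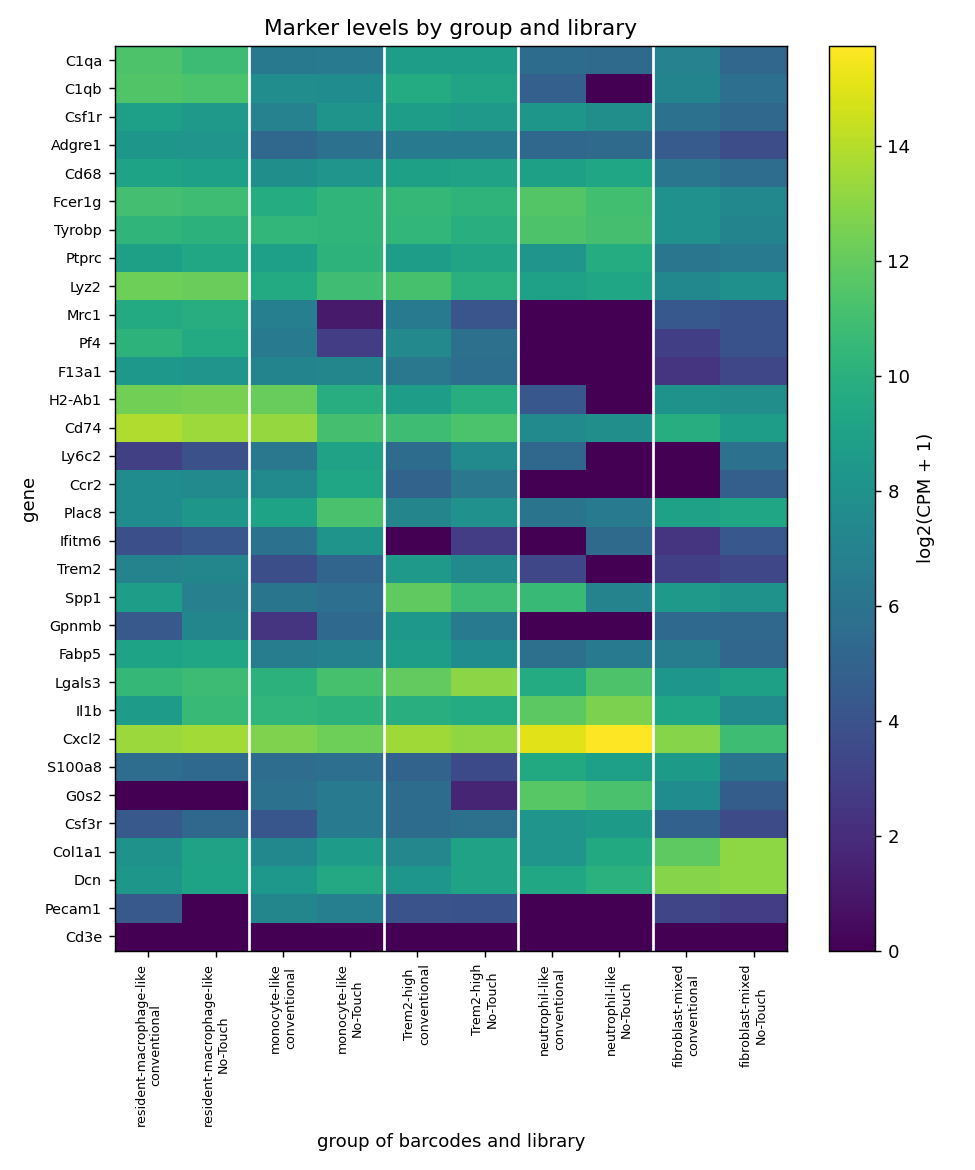
Colours give log2(CPM + 1) of 32 genes (rows) in the summed UMIs of the 5 groups of members, each split by library (columns). C1qa and Mrc1 are highest in the resident-macrophage-like columns, Ly6c2 in the No-Touch monocyte-like column, and Col1a1 and Dcn in the fibroblast-mixed columns.

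At the edge of the rule, 65 conventional and 88 No-Touch members had exactly 4 of the 7 genes, and 346 and 193 kept barcodes had 3. The conventional barcodes with 3 genes had a median of 3255 UMIs and G0s2, a neutrophil gene, at 1229 CPM with C1qa at 3.71 CPM. Members with all 7 genes numbered 15 and 17, with C1qa at 1655 and 1551 CPM and G0s2 at 0 CPM in both libraries. The neutrophil limit left out 43 and 10 barcodes, and Cd3e left out 1 and 2.

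Members made up 0.908% of kept conventional barcodes (exact 95% interval 0.736 to 1.11) and 1.67% of No-Touch barcodes (1.45 to 1.93). For the 3 phagocyte groups alone the shares were 0.469% (0.347 to 0.619) and 1.10% (0.919 to 1.31). With every kept barcode first thinned to 3000 UMIs the shares of members were 0.346% and 0.642%. The No-Touch share was the higher in each of these, but the sort, the digestion and the greater depth of the No-Touch library can all set a share.

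Among the 7 choosing genes, levels in the 3 phagocyte groups were close between the libraries for Fcer1g (1356 and 1316 CPM), Cd68 (371 and 396 CPM) and Csf1r (287 and 316 CPM), the receptor for the growth factor that keeps macrophages alive. C1qa, a chain of complement C1q, lay at 956 CPM in the conventional and 446 CPM in the No-Touch library. Within the resident-macrophage-like group it lay at 2550 CPM (2298 to 2822) and 1792 CPM (1619 to 1978), and within the monocyte-like group at 82.1 and 93.1 CPM. Because these genes chose the barcodes, the values are a description.

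The resident-macrophage-like barcodes held much antigen presentation and chemokine RNA. Cd74, the invariant chain that guides MHC class II to its compartment, lay at 15130 CPM in the conventional and 11007 CPM in the No-Touch library, and Ccl4, a chemokine, at 12607 and 9114 CPM. Apoe, which carries lipid, lay at 8616 and 6842 CPM, and Ccl8 at 1319 and 1659 CPM. Mrc1 (chromosome 2, 14229392 to 14332057, mm10) lay at 775 CPM (639 to 931) and 889 CPM (768 to 1023), so its intervals overlapped. Folr2, F13a1 and Cbr2 were also detected, whereas Vsig4 had no UMI in either library.

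The Trem2-high barcodes carried Trem2 (chromosome 17, 48346401 to 48354147), a lipid-sensing receptor, at 360 CPM (228 to 540) on the conventional and 188 CPM (151 to 231) on the No-Touch side. Spp1, which encodes osteopontin, lay at 3754 and 1770 CPM, with 40.4% and 35.1% of its UMIs from 1 barcode. Lgals3, a galectin of activated macrophages, lay at 3942 and 8125 CPM, and Abcg1, which exports cholesterol, at 219 and 473 CPM. Of the 10 lipid-associated macrophage markers only Trem2 was among the 10 leading genes, so the group was not named for that state. Their summed level was still the highest of the groups, at 12524 CPM with both libraries together, against 1463 to 3353 CPM in the others. Most of that sum came from Lgals3 and Spp1, whose levels are given above, beside sums of 11778 CPM in the conventional and 12623 CPM in the No-Touch library. In at least 10% of barcodes 9 of the 10 were found, against 8 in the resident-macrophage-like, monocyte-like and fibroblast-mixed groups and 4 in the neutrophil-like group. The conventional group is 10 barcodes with 63932 UMIs in all, and 1 of them held 19.8% of these.

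Between the libraries, 259 of 3600 genes of at least 50 CPM in the 3 phagocyte groups stood 2 times or more higher on the No-Touch side (7.19%) and 166 stood 2 times or more lower (4.61%). Over all members the numbers were 239 of 3552 higher (6.73%) and 174 lower (4.9%). Ratios below are log2 values of CPM + 1, No-Touch divided by conventional. The genes furthest apart, of at least 100 CPM and 2 times the level in other kept barcodes, were led upward by Irgm1, Ly6c2, Osm, Calhm6 and Cd300lf and downward by Ccl5, Ramp3, Pf4, Jdp2 and Cd74. Ramp3, at 122 and 22.5 CPM from 8 of 49 and 10 of 127 barcodes, turned direction (3.41) when barcodes needed at least 5 of the 7 choosing genes.

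**Figure D3:**
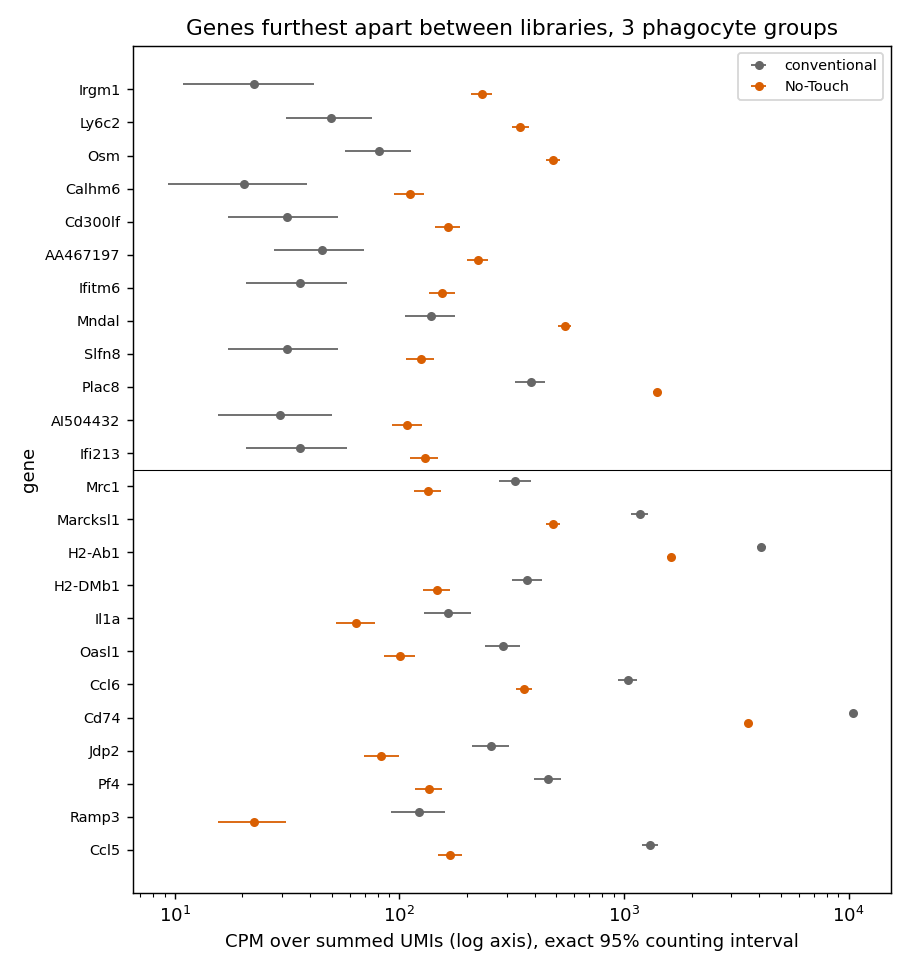
Points give the CPM (log x axis) of the 12 highest and 12 lowest named genes (y axis) in the 3 phagocyte groups, grey for the conventional and orange for the No-Touch library, with exact 95% counting intervals. The intervals of the 2 libraries do not overlap for any of the genes drawn, from Irgm1 at 22.6 and 232 CPM to Ccl5 at 1308 and 168 CPM. The genes were chosen for their distance in these same counts, so the gaps are a description and no support for a difference.

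Over the 3 phagocyte groups together, most monocyte genes stood higher in No-Touch barcodes. Ly6c2 (chromosome 15, 75108158 to 75111970), the Ly6C antigen of classical mouse monocytes, was found in 9 of 49 conventional barcodes at 49.7 CPM (31.2 to 75.3) and in 61 of 127 No-Touch barcodes at 345 CPM (316 to 376), a log2 ratio of 2.77. Plac8 lay at 384 and 1400 CPM, Ifitm6 at 36.2 and 155 CPM, and Ccr2 at 165 and 371 CPM. Of the 19 measured genes of the monocyte list 13 passed 1.5 times upward and 0 downward, and the median log2 ratio was 1.07, beside 21.4% higher, 17.3% lower and a median of 0.04 over all 8511 genes of at least 10 CPM. Within the resident-macrophage-like group 6 of 17 were higher and 5 lower (median -0.15), beside 28.8% and 25.5% of all genes. Within the Trem2-high group 9 of 18 were higher and 6 lower (0.46), beside 32.5% and 29.8%. In the other kept barcodes the median of the 10 measured genes was 0.20. These shares of all genes, and 26.5% and 24.8% in the monocyte-like group, stand beside every list count of the same barcodes below.

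In the monocyte-like group conventional barcodes held Ly6c2 at 77.7 CPM (46.1 to 123) and No-Touch barcodes at 535 CPM (486 to 588), with Ccr2 at 181 and 597 CPM, and Plac8 at 570 and 2367 CPM. Of 19 genes 18 were higher by that measure and 0 lower, beside 26.5% and 24.8% of all genes. The 19 conventional barcodes of this group were mixed. Summed dendritic cell markers lay at 898 CPM against 225 CPM in the No-Touch barcodes, and blood endothelial markers at 1114 against 600 CPM. Lymphatic endothelial markers lay at 1287 against 74.7 CPM, and epithelial or parathyroid markers at 4000 against 45.3 CPM. These last sums were not spread over the group. For each list only 1 conventional barcode of the 3 phagocyte groups passed 10% of the class median. The highest levels were 314 UMIs per 10000 for the lymphatic and 705 for the epithelial or parathyroid list. Ccr7, the receptor that guides migrating dendritic cells, lay at 419 CPM from 5 of 19 conventional barcodes and had no UMI in 60 No-Touch barcodes. The part of this mixture in the monocyte difference was not tested.

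After thinning to 3000 UMIs, Ccr2 was seen in 6 of 37 conventional (16.2%, 6.19 to 32.0) and 54 of 115 No-Touch barcodes (47.0%, 37.6 to 56.5) of the 3 phagocyte groups, with 12 shallower barcodes left out of each. Without thinning the shares were 28.6% and 58.3%. In thinned fibroblasts, which should lack the gene, Ccr2 was seen in 0 of 1475 and 2 of 1460 barcodes. A count of 0 there allows a share of up to 0.203%. Ly6c2 gave 10.8% (3.03 to 25.4) and 35.7% (26.9 to 45.1) after thinning, against 0.339% and 0.411% in fibroblasts. The median depth before thinning was 9014 and 11541 UMIs in the 3 groups.

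The No-Touch phagocytes held most interferon response genes at higher levels, many were also higher in the other kept barcodes, and the difference between these was not tested. Irgm1 (chromosome 11, 48861968 to 48871683), a GTPase that restrains intracellular microbes, was found at 22.6 CPM (10.8 to 41.6) in conventional and 232 CPM (209 to 258) in No-Touch barcodes, a log2 ratio of 3.31. It was also higher in the other No-Touch barcodes, at 21.9 and 110 CPM. Mndal, of the interferon-inducible p200 family, lay at 138 and 545 CPM, and Irf1, a transcription factor downstream of interferon gamma, at 585 and 2133 CPM. Irf1 lay at 1233 and 1324 CPM in the other kept barcodes.

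Of 29 measured interferon genes 20 passed 1.5 times upward and 3 downward, and the median log2 ratio was 1.03. In the other kept barcodes 15 of 28 were higher (6.8% of all genes there) and 0 lower (6.34%), with a median of 0.63, and in the neutrophils outside the members the median was 0.74. The median was 0.48 in the resident-macrophage-like, 1.13 in the monocyte-like and 1.16 in the Trem2-high group. In the resident-macrophage-like group 14 of 29 were higher and 8 lower, beside 28.8% and 25.5% of all genes there. The list did not move as 1 block. Rsad2, an antiviral enzyme, lay at 859 CPM in the conventional and 351 CPM in the No-Touch library, Ifit1 at 264 and 79.9 CPM, and Isg15 at 549 and 449 CPM. In the conventional library 1 barcode gave 43.6% of the Ifit1 and 36.3% of the Rsad2 UMIs, and in Cxcl9, at 262 and 732 CPM, 1 conventional barcode gave 83.6%.

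MHC class I presentation followed the rest of the tissue. B2m, the invariant partner of class I heavy chains, lay at 1378 and 3706 CPM in the 3 phagocyte groups and at 1500 and 3161 CPM in the other kept barcodes, and H2-T23 at 138 and 372 CPM against 120 and 276 CPM. Of 16 listed genes 7 passed 1.5 times upward and 0 downward, and the median of 0.44 compares with 0.25 in the other kept barcodes. Class I genes have close copies, and how reads were split between copies is uncertain.

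Over the 3 phagocyte groups as a whole, MHC class II genes were at lower levels in No-Touch barcodes. H2-Ab1, the class II beta chain of the I-A molecule (chromosome 17, 34257689 to 34269419), was at 4074 CPM (3889 to 4267) in conventional barcodes and at 1619 CPM (1556 to 1685) in No-Touch barcodes. Cd74 (chromosome 18, 60803848 to 60812652) lay at 10481 and 3578 CPM, H2-Aa at 3634 and 1602 CPM, H2-Eb1 at 3164 and 1410 CPM, and H2-DMb1, part of the peptide exchanger of the class II pathway, at 371 and 147 CPM. Of 15 listed genes 10 were at least 1.5 times lower and 1, the costimulator Cd80 at 31.6 and 93.8 CPM, was higher, with a median of -1.17. The median was -0.25 in the other kept barcodes.

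Within groups of like cells this difference was not uniform. In the resident-macrophage-like group H2-Ab1 lay at 5365 CPM (4997 to 5753) and 5893 CPM (5575 to 6224), and of 12 genes 2 were higher and 0 lower by the list measure, beside 28.8% and 25.5% of all genes. In the monocyte-like group H2-Ab1 lay at 4259 CPM in the conventional library, with 24.2% of its UMIs from 1 barcode, and at 905 CPM in the No-Touch library. There 10 of 15 genes were lower, beside 24.8% of all genes, and 2 higher (26.5%). The conventional barcodes of this group also held more dendritic cell marker RNA (898 against 225 CPM), and its part in this difference was not tested. In the Trem2-high group H2-Ab1 lay at 438 CPM (291 to 633) and 890 CPM (808 to 979). There 6 of 13 genes were higher, beside 32.5% of all genes, and 2 lower (29.8%). The list median was -0.35 when members needed at least 5 of the 7 choosing genes, and -0.60 when every barcode was given equal weight. After thinning, H2-Ab1 was seen in 62.2% (44.8 to 77.5) and 52.2% (42.7 to 61.6) of barcodes, conventional first, so the share of barcodes with a UMI was not distinguishable at this depth. The share in thinned fibroblasts was 10.0% and 7.47%.

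**Figure D4:**
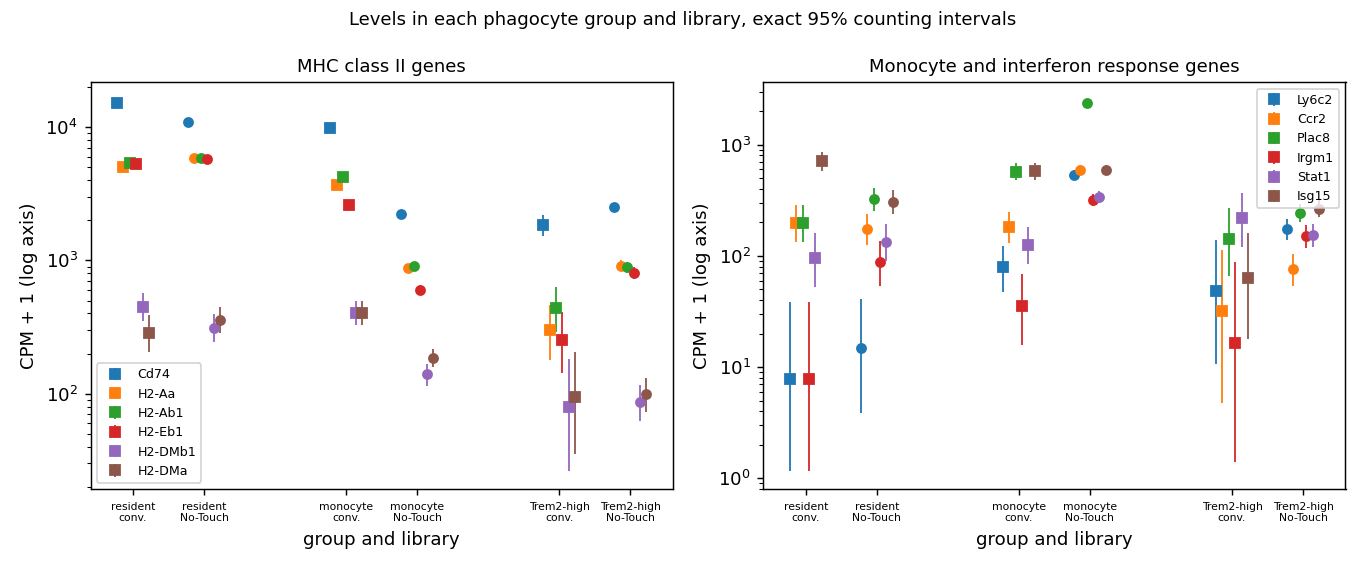
Points give CPM + 1 (log y axis) of 6 MHC class II genes (left) and 6 monocyte or interferon genes (right) in the 3 phagocyte groups, squares for the conventional and circles for the No-Touch library, with exact 95% counting intervals. The class II genes are apart in the monocyte-like group (H2-Ab1 4259 and 905 CPM) and close in the resident-macrophage-like group (5365 and 5893 CPM). The conventional monocyte-like barcodes also held more dendritic cell marker RNA (898 and 225 CPM).

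The class II genes share a promoter layout on which the factor CIITA acts. Stretches of the RefSeq promoters (GRCm38.p6, 110 to 21 bases before the gene start) of the chains H2-Aa (chr17:34287844-34287933, minus strand) and H2-Eb1 (chr17:34305757-34305846, plus strand) are shown because both chains differed alike between the libraries over the 3 groups. Capitals mark GATTGG, the inverted CCAAT letters of the Y box, and the fixed string TGATGATG, on either strand. TGATGATG was searched for the X2 box, another element of this layout, but does not define that box. Other spellings of the X2 box were not searched, so an unmarked stretch can still hold one.
H2-Aa: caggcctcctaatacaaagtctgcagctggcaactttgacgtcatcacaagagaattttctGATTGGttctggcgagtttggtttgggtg
H2-Eb1: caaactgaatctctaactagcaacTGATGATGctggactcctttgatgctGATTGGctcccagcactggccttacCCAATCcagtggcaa
Of the 15 listed genes 10 matched a RefSeq promoter entry, 7 of these held GATTGG and 2 held TGATGATG. Over all 32851 promoters of 300 bases the shares were 16.1% and 1.44%. A match is a description of letters and not a measured site. A promoter without TGATGATG is not shown to lack an X2 box. Ciita itself lay at 94.9 CPM in the conventional and 45.6 CPM in the No-Touch library, and within the resident-macrophage-like group at 129 and 115 CPM.

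Resident macrophage genes also differed in direction between groups. Over the 3 phagocyte groups Mrc1 was at 328 CPM (277 to 386) in conventional and 134 CPM (116 to 154) in No-Touch barcodes, Pf4 was at 456 and 135 CPM, and 9 of 16 listed genes were lower and 2 higher, with a median of -0.89, or -0.32 when every barcode was given equal weight. Inside the resident-macrophage-like group 7 of 17 were higher and 1 lower, with a median of 0.33. In the monocyte-like group 3 of 14 were higher and 10 lower (-1.73), and in the Trem2-high group 6 of 13 were higher and 7 lower (-0.63). Resident-macrophage-like barcodes were 20 of 49 conventional and 29 of 127 No-Touch barcodes in the 3 groups. Ccl5 (chromosome 11, 83525778 to 83530518), a chemokine for T cells and monocytes, differed inside the group as well, at 2672 CPM (2415 to 2950) and 160 CPM (112 to 223), with 35.1% of its conventional and 51.4% of its No-Touch UMIs from 1 barcode.

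**Figure D5:**
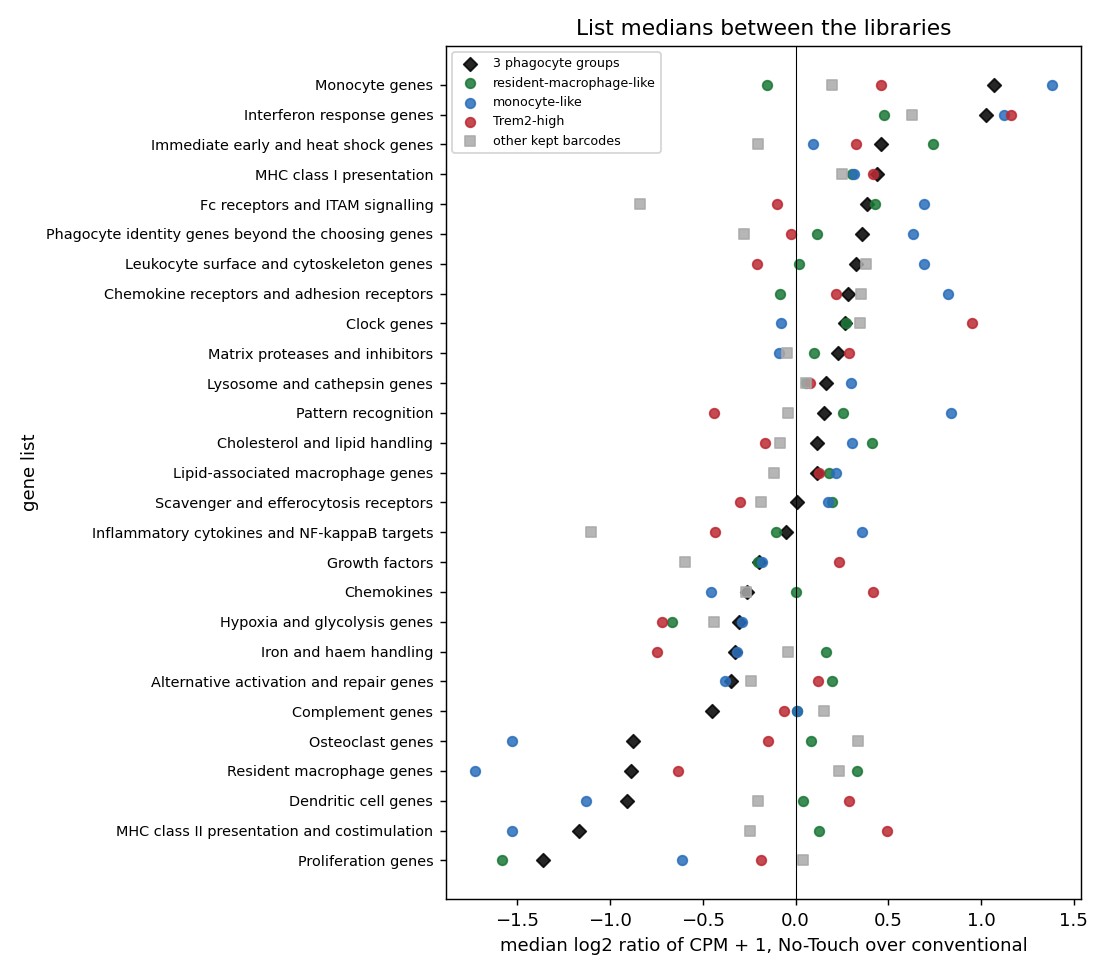
Points give the median log2 ratio (x axis, No-Touch over conventional, CPM + 1) of 27 gene lists (y axis) in the 3 phagocyte groups together (black diamonds), in each group (coloured circles) and in the other kept barcodes (grey squares). Monocyte and interferon response genes lie furthest to the right in the combined groups (1.07 and 1.03), and proliferation and MHC class II genes furthest to the left (-1.36 and -1.17). The proliferation median rests on 9 measured genes of 18 listed.

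Several early response genes were higher in No-Touch phagocytes. Zfp36, which encodes the RNA decay factor tristetraprolin, lay at 1216 CPM (1115 to 1323) and 4974 CPM (4862 to 5087), and was higher in each of the 3 groups. It was also higher in the other kept barcodes, at 1584 and 3174 CPM. Fos lay at 832 and 2920 CPM, against 2539 and 4583 CPM elsewhere, and the nuclear receptor Nr4a1 at 384 and 1316 CPM, against 377 and 503 CPM. Of 20 listed genes 9 were higher and 1 lower, with a median of 0.46 in the phagocytes and -0.20 in the other kept barcodes. By group, 14 were higher and 1 lower in the resident-macrophage-like (median 0.74), 8 and 3 in the monocyte-like (0.10) and 8 and 4 in the Trem2-high barcodes (0.32). In the same order, the shares of all genes were 28.8% higher and 25.5% lower, 26.5% and 24.8%, and 32.5% and 29.8%.

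The cytokine Osm (chromosome 11, 4236420 to 4241026), which acts on stromal cells, was at 81.4 CPM (57.0 to 113) in conventional and 483 CPM (449 to 520) in No-Touch barcodes. It was detected in 17 of 49 and 86 of 127 barcodes and was higher in all 3 groups, at 109 and 449 CPM in the resident-macrophage-like, 51.8 and 577 CPM in the monocyte-like and 125 and 340 CPM in the Trem2-high group. Neutrophils outside the members held it at 207 and 316 CPM. Tnfaip3, a brake on NF-kappaB, lay at 391 and 954 CPM.

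Other inflammatory genes were not shifted as a list. Tnf lay at 843 CPM (760 to 933) and 868 CPM (822 to 917), so its intervals overlapped, Il1b at 963 and 1112 CPM and Cxcl2 at 8714 and 7260 CPM. Il1a was lower, at 165 and 64.1 CPM. Of 24 inflammatory genes 5 were higher and 5 lower, with a median of -0.05, whereas over the other kept barcodes 15 of 20 were lower and 2 higher, with a median of -1.10. Over all members, with the neutrophil-like and fibroblast-mixed groups included, 15 of 24 were lower (12.5% of all genes there) and 2 higher (18.4%). In the fibroblast-mixed group 18 of 23 were lower (16.3% of all genes there) and 2 higher (20.5%). In the neutrophil-like group 4 of 22 were lower (49.5% of all genes there) and 10 higher (34.4%), with only 6 No-Touch barcodes.

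Among receptors and degradation genes the differences over the 3 phagocyte groups together were smaller. Of 20 Fc receptor and ITAM signalling genes, which turn antibody binding into uptake, 6 were higher and 0 lower, with a median of 0.38. Over all genes 21.4% were higher and 17.3% lower. Fcgr4 lay at 49.7 and 103 CPM and the inhibitory receptor Lilrb4a at 682 and 1181 CPM, while the kinase Syk lay at 287 and 195 CPM. Of 26 lysosome and cathepsin genes 5 were higher (19.2%, near the share of all genes) and 0 lower, with a median of 0.16. Ctsc lay at 411 and 655 CPM and Ctss at 922 and 1270 CPM. Of 25 lipid-associated macrophage genes 7 were higher and 4 lower, with a median of 0.12, and Trem2 over the 3 groups lay at 102 and 99.1 CPM. Within the monocyte-like group 13 of 20 Fc receptor and ITAM genes were higher and 0 lower (median 0.69), beside 26.5% and 24.8% of all genes. In the resident-macrophage-like group 6 were higher and 1 lower (0.43), and in the Trem2-high group 3 and 4 (-0.10).

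Other lists lay lower. Of 9 measured proliferation genes, out of 18 listed, 5 were lower and 0 higher, with a median of -1.36. Mki67 lay at 56.5 and 19.2 CPM and Top2a at 15.8 and 2.64 CPM. A gene counted from 10 CPM in either library, and 3 counts are 6.78 CPM on the conventional side. Low genes could thus enter through the library where they were higher. The whole proliferation list summed to 1702 and 1201 CPM. Of 16 dendritic cell genes 9 were lower and 0 higher, with a median of -0.91, and 12 of 18 were lower in the monocyte-like group. That median was -0.27 when barcodes needed at least 5 of the 7 choosing genes. Of 17 hypoxia and glycolysis genes 4 were lower (23.5%, beside 17.3% of all genes) and 1 higher (5.88%, beside 21.4%). Their median was -0.31, against -0.44 in the other kept barcodes. Within groups 10 of 17 of them were lower in the resident-macrophage-like (median -0.67), 7 of 17 in the monocyte-like (-0.29) and 12 of 19 in the Trem2-high group (-0.72), with 1 higher in each. Of 7 measured osteoclast genes 4 were lower and 1 higher, and Calcr and Oscar had no UMI in either library.

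The identity of the cells as leukocytes and phagocytes was carried by both libraries. Of 26 identity genes beyond the choosing genes 6 were higher (23.1%) and 4 lower (15.4%), with a median of 0.36. These shares were near those of all genes (21.4% and 17.3%). Spi1, the master transcription factor of myeloid cells, lay at 470 and 454 CPM and Zeb2 at 974 CPM in either library, while Cebpb, a factor of activated myeloid cells, lay at 1080 and 3734 CPM. Of 20 leukocyte surface and cytoskeleton genes 6 were higher and 0 lower, with a median of 0.33, and Ptprc lay at 477 CPM in 39 of 49 and at 904 CPM in 109 of 127 barcodes. Itgal, the alpha chain of the adhesion receptor LFA-1, lay at 11.3 and 61.4 CPM. In the monocyte-like group 13 of 25 identity genes were higher and 1 lower (median 0.63). There 12 of 20 leukocyte genes were higher and 0 lower (0.69), beside 26.5% and 24.8% of all genes. The identity medians were 0.12 in the resident-macrophage-like and -0.03 in the Trem2-high group, and the leukocyte medians 0.02 and -0.21. The part of this shift in the monocyte gene difference was not tested.

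Genes for sensing and movement were mixed. Of 18 pattern recognition genes 6 were higher and 1 lower (median 0.15), and within the monocyte-like group 13 of 19 were higher and 3 lower (median 0.84). Nod1, a sensor of bacterial cell walls, lay at 15.8 and 56.8 CPM, and Tlr2 at 391 and 419 CPM. Of 18 chemokine and adhesion receptors 7 were higher and 1 lower (median 0.28), and Cxcr4, which holds cells in marrow and tissue niches, lay at 142 and 425 CPM. Of 19 chemokines 3 were higher and 8 lower (median -0.26, and -0.27 in the other kept barcodes). Ccl6 lay at 1037 and 359 CPM, and Ccl2, which calls in monocytes, at 818 and 1414 CPM.

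Genes for clearance and repair showed no common shift. Of 15 complement genes 2 were higher and 5 lower (median -0.45), with C1qb at 1162 and 651 CPM and Cfb, a part of the alternative pathway, at 99.4 and 204 CPM. Of 18 scavenger and efferocytosis receptors 6 were higher and 4 lower (median 0.01). Of 16 alternative activation genes 5 were higher and 6 lower (median -0.35), with Il1r2, a decoy receptor for interleukin 1, at 278 and 35.7 CPM, 50.4% of its conventional UMIs from 1 barcode. Of 17 growth factor genes 4 were higher and 3 lower (median -0.20), and among 17 matrix protease genes, 7 higher and 3 lower gave a median of 0.23. Plaur, the urokinase receptor, lay at 181 and 603 CPM.

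Metabolic lists differed among themselves. Of 14 iron and haem genes 6 were lower and 0 higher (median -0.33), with the ferritin chain Fth1 at 17844 and 11846 CPM. Of 19 cholesterol and lipid genes 6 were higher and 5 lower (median 0.12), with Abcg1 at 81.4 and 207 CPM and Apoe at 3340 and 1901 CPM. Of 12 clock genes 3 were higher and 1 lower (median 0.27).

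Several genes that were lower over all members were carried by the neutrophil-like barcodes. Il1f9 lay at 204 and 30.9 CPM over all members, a log2 ratio of -2.69, but at 2.26 and 15.2 CPM in the 3 phagocyte groups, where its direction turned (2.31). The conventional level there is 1 UMI, under the 6.78 CPM that 3 counts correspond to, so that direction rests on 1 UMI. Hcar2 and Slc7a11 turned likewise, from -2.24 and -2.25 to 1.52 and 0.38. Ly6c2, Osm, Plaur, Cxcr4 and Ms4a4c were higher with either set of barcodes.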

How the data were processed

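The authors deposited UMI counts, 1 filtered matrix of genes by barcodes for each library, made with Cell Ranger 3.1.0 on mm10 per the submitters' processing notes, while the file headers name Cell Ranger 6.0.0, which could not be settled. Groups come from the sample titles. The deposited counts held 11899 and 12450 barcodes with 200851272 and 373319906 UMIs. Barcodes were kept from 500 genes and 1000 UMIs upward if mitochondrial UMIs did not pass 10%. Strand use in counting is not stated in the labels or headers.

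Members, gene lists and markers were chosen with earlier results of these data known, and the 3 phagocyte groups after the clusters were seen. Members were clustered in scanpy 1.11.5 (counts per 10000, log, 1500 variable genes, 20 principal components, 15 neighbours, Leiden resolution 0.5). Scrublet calls stayed in. UMIs were summed per library and scaled to CPM. Genes of at least 50 CPM counted at 2 times, and list genes of at least 10 CPM at 1.5 times. Named genes were the 12 highest and 12 lowest of at least 100 CPM and 2 times the other kept barcodes in the library where they were higher, with at most 25% of UMIs there from 1 barcode, without predicted or sex-linked genes, genes of mitochondria, ribosomes, haemoglobin or immunoglobulin, and markers of non-phagocyte classes. To these were added the choosing genes, the markers, and the largest ratios and highest levels of each list; other genes were named after their values were seen. Exact 95% intervals are Garwood's where UMIs were counted and Clopper-Pearson's where barcodes were. For a count of 0 the limit given is 1-sided instead, and allows up to about 3 counts. Positions are from GENCODE vM21. The script was tested on simulated data. Alternatives used TMM factors from edgeR 4.0.16.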

Additional observations from a re-analysis of the deposited data

How the results depend on the processing

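The share of members in the conventional and No-Touch libraries was 0.287% and 0.911% with at least 5 of 7 choosing genes, 2.79% and 2.91% with at least 3, 0.440% and 0.685% without barcodes carrying markers of other classes, 0.488% and 0.720% without those carrying stromal markers, 0.469% and 1.10% for the 3 phagocyte groups alone, and 0.346% and 0.642% after thinning to 3000 UMIs. Leaving out barcodes with markers of other classes put 73.9% and 98.7% of members in the 3 groups. The 239 higher genes became 363 with at least 5 of 7 genes, 376 after thinning, 442 at a minimum of 20 CPM and 151 at 100 CPM, and the 174 lower genes became 263 after thinning and 317 at 20 CPM; the minimum changes how many genes are tested. TMM scaling gave 222 higher and 182 lower. The settings that use stromal markers or the 3 groups were chosen after seeing the data. For the 3 groups alone the direction turned for Il1f9 (2.31), Slc7a11 (0.38) and Hcar2 (1.52), and for Ramp3 (3.41) when these barcodes also needed at least 5 of 7 genes; the cause was not tested. Over the alternatives for the 3 groups the monocyte median ranged from 0.82 to 1.09, the interferon median from 0.78 to 1.12 and the MHC class II median from -1.37 to -0.35. No paired analysis was possible because each group is 1 library, and for the same reason no replicate could be left out. With 442512 conventional and 1514117 No-Touch UMIs in the 3 groups, 3 counts correspond to 6.78 and 1.98 CPM, and lower levels rest on fewer than 3 counts.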
